A study of Mus musculus with 4 samples.

Results

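The cytosolic ribosomal protein genes were followed in embryonic mouse kidneys after deletion of Sall1, a zinc finger gene of kidney progenitors. Members were all array probes that are not controls and whose RefSeq accession belongs to a gene named Rpl or Rps plus a number, with an optional letter or copy suffix, or to Rplp0, Rplp1, Rplp2 or Rpsa. S6 kinases and entries named as pseudogenes were left out. This gave 172 of 55681 probes, for 84 of the 20018 genes named on the array, of which 80 fit a suffix of at most 1 letter and 4 carry a longer one (Rpl7l1, Rpl22l1, Rpl36al and Rps3a1). A probe was tested if 1 group or the other had it well above background in both replicates, which held for 167 of the 172 probes and 81 of the 84 genes. These 81 genes were well above background on all 4 arrays, so none entered through 1 group alone, and 30 of them had 1 such probe and 51 several.

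RNA of whole kidneys from embryos of a hybrid of 129 and C57BL/6 mice was hybridised to 4 one-colour arrays. The control group (2 arrays) carries the title flox and the genotype control. The Sall1 knockout group (2 arrays) carries the title CreER KO, where CreER is a Cre recombinase that acts once tamoxifen is given. Per the labels all 4 samples had tamoxifen at E12.5 and were taken 24 hours later, at E13.5, and the protocol names Sall1CreER for both groups alike. Beyond that name the labels do not say which sequence drives CreER, or whether the controls carry it. They also do not say whether a sample is 1 embryo or a pool, so a p-value here reflects only how these 4 samples spread. In bulk tissue, fewer cells of a type and less RNA per cell cannot be told apart.

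A ribosome is built from a small and a large subunit, each of ribosomal RNA and many different proteins needed in matched amounts. The messengers of ribosomal proteins are among the most abundant of a growing cell, and most begin with a 5′ terminal oligopyrimidine tract (TOP), a run of C and T bases at the cap through which mTOR and Larp1 set their translation. Arrays measure the level of a messenger and not its translation. Several members act outside the ribosome, above all those that bind Mdm2 and so stabilise p53 when ribosome assembly fails.

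All 10 kidney regulators used to check the tissue (among them Six2, Pax2, Wt1, Ret and Foxd1) were well above background on all 4 arrays. Their median log2 difference was -0.22, with 7 below 0 and 3 above. Without overlap 7 were lower and 2 higher, against 27.7% and 21.5% of all features tested. An unadjusted p under 0.05 was reached by 6, all lower, against 5.94% of all features. Limma with the prior fitted along the signal called Gdnf, Osr1 and Six2 lower. Sall1 itself had log2 signals, with each array's 75th percentile as 0, of 1.79 and 1.81 in the controls and 1.03 and 1.07 in the knockouts. Knockout minus control came to -0.75 ± 0.056 (SE, 2 arrays a group), which did not pass over all genes (limma, adjusted p = 0.126). Markers of liver and macrophages and most markers of muscle were higher in the knockouts. Liver genes had a median log2 difference of 1.69, higher in 14 of 14, and their summed signal ranged from 14.4 to 21.1 in controls and from 42.2 to 45.5 in knockouts, in units of the 75th percentile. Muscle genes had a median of 1.28 (summed signal 25.7 to 58.5 against 68.9 to 100.4), and of 0.49 without control replicate 2. Of the 14 tested, 13 were higher, while Des was lower without overlap, at -0.52. Limma with the prior fitted along the signal called Des and no other gene of the muscle list. Macrophage genes had a median of 0.50 (8.81 to 9.59 against 11.6 to 13.6). Erythroid genes went with the replicate, with 1 of 12 not overlapping. Their median was 0.23 (943.2 to 1618 against 990.1 to 1759), with -0.46 without control replicate 1, 1.02 without control replicate 2 and -0.26 without knockout replicate 2. The liver marker Apoh was above background on 3 arrays. The part of these tissues in the results below was not tested.

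A pyrimidine tract lay at the annotated start of some members and not of others. The windows below run from 15 bases before to 15 bases into the gene (RefSeq, GRCm38.p6), with the longest unbroken run of C and T in capitals, and are shown for members described later.

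Rps6 (chr4:86857353-86857382, minus strand): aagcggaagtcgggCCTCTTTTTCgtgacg
Rps18 (chr17:33955651-33955680, minus strand): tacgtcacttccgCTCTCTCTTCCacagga
Rpl38 (chr11:114668565-114668594, plus strand): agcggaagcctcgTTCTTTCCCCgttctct
Rplp2 (chr7:141447636-141447665, plus strand): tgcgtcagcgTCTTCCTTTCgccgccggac
Rpl22l1 (chr3:28805493-28805522, plus strand): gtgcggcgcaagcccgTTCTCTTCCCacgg
Rpl7l1 (chr17:46782642-46782671, minus strand): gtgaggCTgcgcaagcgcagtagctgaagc
Rps4x (chrX:102189377-102189406, minus strand): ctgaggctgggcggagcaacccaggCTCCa
Rplp0 (chr5:115559452-115559481, plus strand): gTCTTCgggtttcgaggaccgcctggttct
Rpl5 (chr5:107900513-107900542, plus strand): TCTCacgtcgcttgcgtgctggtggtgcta
Rpl11 (chr4:136053379-136053408, minus strand): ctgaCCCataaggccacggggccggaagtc
Rpl24 (chr16:55966260-55966289, plus strand): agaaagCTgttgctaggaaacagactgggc

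The first 5 windows hold a run of 10 or 11 bases that spans the annotated start or, at Rpl22l1, begins 1 base past it, whereas the longest runs of the other 6 have 2 to 5 bases. Promoter windows were matched for 63 of the 84 genes, with 75 annotated starts. A run of at least 8 pyrimidines, read on the sense strand only, lay in 28 of these 75 windows (37.3%) and in 3943 of the 32851 windows of all genes. The share was 10.3% for ribosome biogenesis genes and 11.8% for mitochondrial ribosomal protein genes. An annotated start can lie off the true cap site, so a window without a run says only that the run is not in these 30 bases.

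Messengers of the ribosomal proteins differed little between control and knockout kidneys. Over the 81 genes the median log2 difference, knockout minus control, was -0.031, with quartiles of -0.058 and 0.0037, beside a median of -0.013 over all 25083 genes and unnamed sequences tested. The extremes were Rpl7l1, 1.17-fold lower, and Rps4l, 1.12-fold higher. None of the 81 genes differed by more than 1.2-fold, where 16.5% of all features tested did, and 2 differed by more than 1.1-fold, where 37.7% of all did. Of the 81 genes, 59 lay below 0, beside 53.6% of all features. Limma called 0 of the 81 genes at an adjusted p under 0.05, as it called 0.0% of all features, and the smallest adjusted p among them was 0.334. At an unadjusted p under 0.05 there was 1 member, Rpl7l1, against 12.7% of all features and 2.61% of the 766 bright features. With a prior that follows the signal, limma called 0 members where it called 1.2% of all features, and 4 members had an unadjusted p under 0.05.

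A p that misses the threshold does not show that levels were alike, so the intervals are given as well. The 95% interval of the difference lay within 1.5-fold in either direction for all 81 genes and within 1.2-fold for 67. Standard errors ran from 0.054 to 0.18 with a median of 0.060, on the log2 scale. The widest interval was that of Rps13, from -0.54 to 0.46.

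**Figure D1:**
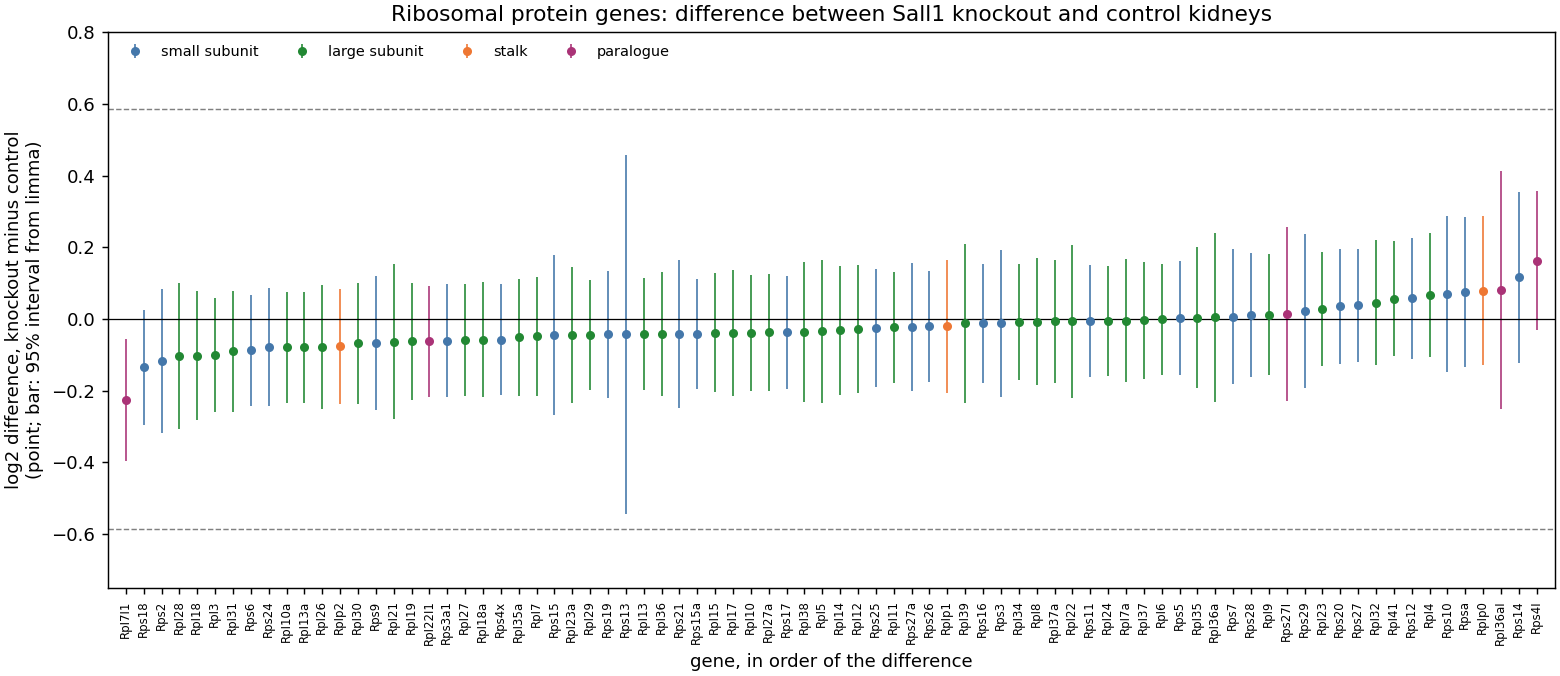
Log2 difference, knockout minus control, of 80 ribosomal protein genes in order of size, coloured by role, with the 95% interval from limma over 2 arrays per group; dashed lines mark 1.5-fold. The intervals of 79 genes span 0, that of Rpl7l1 lies from -0.40 to -0.057, and none reaches 1.5-fold.

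The arrays themselves differed about as much as the groups. After each gene was set to its mean over the 4 arrays, the median of the 81 genes was 0.0030 and 0.035 in control replicates 1 and 2 and -0.027 and -0.0019 in knockout replicates 1 and 2. Control replicate 1 and knockout replicate 2 therefore lay side by side, with control replicate 2 above them and knockout replicate 1 below. Control replicate 2 was above control replicate 1 for 61 of 81 genes, and knockout replicate 2 above knockout replicate 1 for 59. The median difference between groups was -0.010 without control replicate 2, -0.015 without knockout replicate 1 and -0.050 without control replicate 1. The group difference exceeded both replicate differences for 28 genes, 25 lower and 3 higher.

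**Figure D2:**
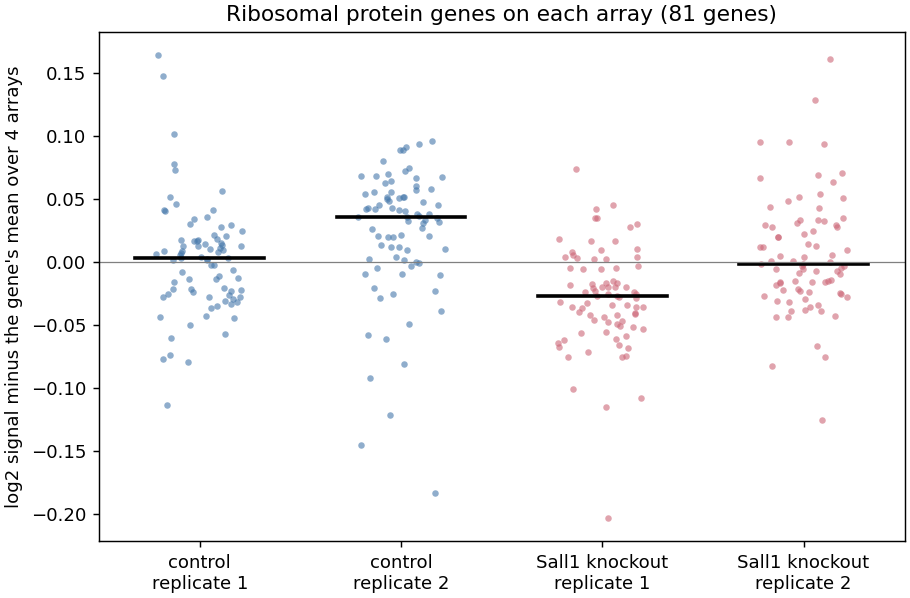
Log2 signal of each of the 81 genes on each array, minus that gene's mean over the 4 arrays; points are genes and bars are medians. The medians run from -0.027 in knockout replicate 1 to 0.035 in control replicate 2, and the points of all arrays overlap.

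The groups did not overlap for 38 of the 81 genes, against 49.2% of all features tested. In 31 of them both knockout arrays were lower, against 27.7% of all features, and in 7 both were higher, against 21.5%. With cyclic loess normalization, which evens out differences between arrays that depend on brightness, these counts became 17 lower and 19 higher, beside 22.9% and 25.3% of all features under that scaling, and the median turned to 0.0037. A lean of the genes to lower values was therefore not kept under this scaling. Quantile normalization and normexp background correction kept it. The first gave 25 lower and 5 higher (25.5% and 22.7% of all features), and the second 38 lower and 7 higher (22.9% and 27.1%). Without control replicate 2 the median of the members was -0.010, close to the -0.0088 of all features. That run had 37 lower and 20 higher without overlap, beside 38.8% and 35.4% of all features. Most members are bright, with 76 of 81 at a mean log2 signal of 6 or more. Of the other features as bright, a set chosen after the values were seen, 766 were tested, with a median of -0.033 and 36.8% lower without overlap. Differences among those 766 had an SD of 0.10, against 0.049 among the 76 bright members, and 3.39% of them exceeded 1.2-fold.

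The 30 small subunit genes had a median of -0.021 on the log2 scale, and 0 had an unadjusted p under 0.05. Without overlap 9 were lower (30.0%, near the 27.7% of all features) and 4 higher (13.3%, against 21.5%). Rps18, a protein of the small subunit head, had log2 signals of 6.67 and 6.71 in controls and 6.56 and 6.55 in knockouts, a difference of -0.13 ± 0.056 (SE; limma, adjusted p = 0.441). Its second probe differed by -0.091 in the same direction, with no overlap in either probe. Rps2 followed with 7.44 and 7.52 against 7.32 and 7.42, a difference of -0.12 ± 0.071, while its second probe overlapped between groups at -0.049. Both genes kept a negative sign under every normalization and with each array left out.

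Rps6, the substrate of the S6 kinases and a readout of mTOR signalling by its phosphorylation, had 7.51 and 7.50 in controls and 7.41 and 7.43 in knockouts. The difference was -0.087 ± 0.055 (SE), without overlap of the groups, at an adjusted p of 0.539 in limma. A second probe gave -0.12 without overlap and the other 0.010 with overlap. Rps19, the gene most often mutated in Diamond-Blackfan anaemia, had 6.58 and 6.67 against 6.57 and 6.59, so that the groups overlapped (-0.043 ± 0.062). Rpsa, which also serves as the precursor of a laminin receptor, had 8.43 and 8.51 against 8.49 and 8.60 and overlapped too. Its difference was 0.075 ± 0.073 by the brightest probe and -0.024, -0.042 and -0.046 by the others. Rps4x, the X-linked small subunit protein, had 6.82 and 6.83 against 6.75 and 6.78, a difference of -0.057 ± 0.055.

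At the upper end of the small subunit stood Rps14, with 8.87 and 8.70 in controls and 8.92 and 8.89 in knockouts. The difference of 0.12 ± 0.084 (SE) was without overlap and rests partly on control replicate 2, since it was 0.029 without that array. Rps10, on 8.67 and 8.76 against 8.72 and 8.84, overlapped between groups. By brightest probe Rps13 stood apart between replicates, with 7.65 and 7.37 in controls and 7.28 and 7.65 in knockouts. The second Rps13 probe showed no such spread, with 7.36 and 7.32 against 7.27 and 7.32, and gave the same difference of -0.043.

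Large subunit proteins had a median of -0.037 over 43 genes, and 0 had an unadjusted p under 0.05. Without overlap 19 were lower (44.2%, against 27.7% of all features) and 2 higher (4.65%, against 21.5%). With cyclic loess normalization the whole family moved to a median of 0.0037. Rpl28 had 6.46 and 6.49 in controls and 6.31 and 6.43 in knockouts, a difference of -0.10 ± 0.072 (SE), and Rpl18 had 7.32 and 7.41 against 7.25 and 7.28, a difference of -0.10 ± 0.063. Rpl3, which lies next to the peptidyl transferase centre, had 7.36 and 7.39 against 7.26 and 7.28, without overlap (-0.10 ± 0.056). The highest log2 difference of the large subunit was 0.067, that of Rpl4.

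Mouse mutants tie some large subunit proteins to patterning. Rpl24, reduced in the Belly spot and tail mouse, was nearly level on the 4 arrays, at 7.88 and 7.88 in controls and 7.88 and 7.87 in knockouts (-0.0050 ± 0.054, SE). Rpl38, lost in the Tail short mouse, had 8.07 and 8.12 against 8.01 and 8.11 and overlapped between groups (-0.036 ± 0.069). The sign of both turned under at least 1 other setting.

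By brightest probe, Rpl5, Rpl11 and Rpl23, 3 of the members that bind Mdm2, differed by at most 0.034 on the log2 scale. Rpl5, which with Rpl11 and 5S ribosomal RNA holds Mdm2, had 6.43 and 6.32 in controls and 6.37 and 6.31 in knockouts (-0.034 ± 0.070, SE). Rpl11 had 8.53 and 8.55 against 8.51 and 8.53 (-0.023 ± 0.055), lower without overlap. Its other probes gave 0.048 and 0.026, both with overlap. By brightest probe Rpl5 and Rpl23 overlapped between groups. Rpl23, another Mdm2 partner, had 8.11 and 8.13 against 8.13 and 8.17 (0.028 ± 0.056). Its other probes gave -0.067, lower without overlap, and -0.017 with overlap. The sign of each of these genes turned under at least 1 other setting, among them cyclic loess for Rpl5 and Rpl11 and median centring for Rpl23.

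The stalk of the large subunit, which recruits elongation factors, is formed by Rplp0 with pairs of Rplp1 and Rplp2. Rplp2 had 8.49 and 8.53 in controls and 8.42 and 8.44 in knockouts, lower without overlap (-0.077 ± 0.057, SE). Rplp1 had 7.89 and 7.97 against 7.88 and 7.95 (-0.020 ± 0.065). Rplp0 had 8.65 and 8.56 against 8.63 and 8.74 (0.079 ± 0.074), and its other 2 probes gave 0.080 and 0.093. The groups overlapped for Rplp1 and Rplp0, and none of the 3 passed (limma, smallest adjusted p = 0.594).

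**Figure D3:**
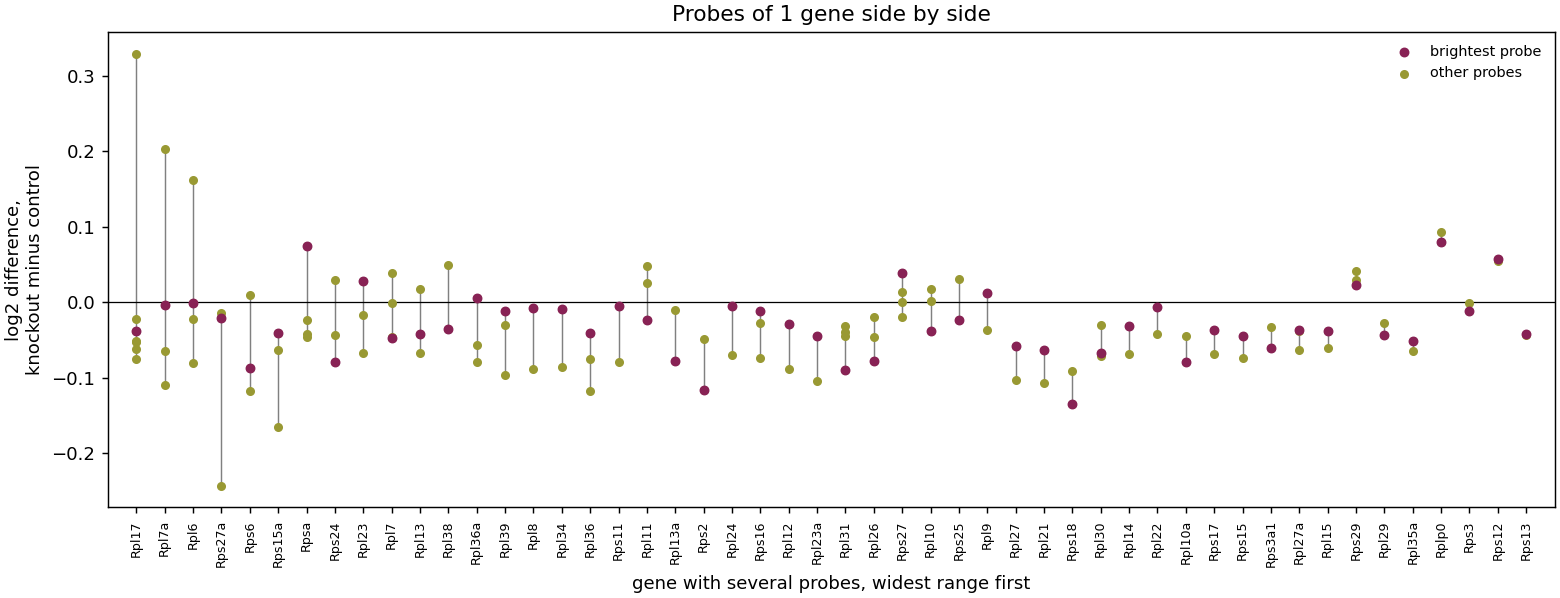
Log2 difference, knockout minus control, of each probe of 50 genes with several probes well above background on all 4 arrays, with the brightest probe in dark red and the others in yellow-green. The median range within these genes is 0.059, and the 4 at the left exceed 0.2.

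Several probes of a gene served as a further check, although they share the RNA of each array and are no replicates. Of 51 genes with several probes, 34 had all probes on 1 side of 0, and the median range between probes was 0.060. The ranges of Rpl17 and Rpl7a were widest. The brightest probe of Rpl17 had 7.09 and 7.16 against 7.06 and 7.11, and that of Rpl7a 7.73 and 7.71 against 7.68 and 7.75. For Rpl17, 6 of 7 probes lay between -0.075 and -0.022, while 1 probe had 5.72 and 5.99 in controls and 6.00 and 6.37 in knockouts, a difference of 0.33. For Rpl7a 1 probe of 4 gave 0.20, with control replicate 2 alone low (6.81 beside 7.26 in control replicate 1 and 7.22 and 7.26 in knockouts). Over all probes, limma called 0 of the 167 member probes, as it called 0.0% of all 34264 probes. Ribosomal protein genes have many near-identical processed copies in the genome, and which copies a probe also binds is not known here.

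Paralogues of core proteins spread more widely than the core proteins, from -0.23 to 0.16 over 5 genes against -0.13 to 0.12 over 76, and are described 1 by 1 without a test of that spread. Rpl7l1, a relative of Rpl7 whose yeast counterpart acts in assembly of the large subunit and is not a part of the finished ribosome, had -0.19 and -0.26 in controls and -0.44 and -0.47 in knockouts. It was lower without overlap by 0.23 on the log2 scale (SE 0.060; limma, unadjusted p = 0.0212, adjusted p = 0.334), and its sign held in each alternative run. Rpl7 itself had 8.09 and 8.12 against 8.03 and 8.09 (-0.048 ± 0.059, SE).

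Rps4l, a copy of the X-linked Rps4x that RefSeq lists as a transcribed pseudogene, had 3.49 and 3.55 in controls and 3.63 and 3.73 in knockouts. It was higher without overlap by 0.16 ± 0.068 (SE; limma, adjusted p = 0.439), in the opposite direction to Rps4x. Rpl22l1, which can take the place of Rpl22, had 6.42 and 6.40 against 6.35 and 6.35 (-0.062 ± 0.055). Rpl22, with 7.31 and 7.31 against 7.23 and 7.37, overlapped between groups (-0.0065 ± 0.075).

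Rps27l, a p53 target gene, had 5.59 and 5.42 in controls and 5.56 and 5.49 in knockouts (0.015 ± 0.086, SE). By brightest probe Rps27 had 8.002 and 8.020 against 8.033 and 8.065, higher without overlap by 0.038 ± 0.056. Its other probes gave 0.014, -0.020 and 0.00061, all with overlap. Rpl36al, an autosomal copy of Rpl36a, had 5.41 and 5.12 against 5.33 and 5.36 (0.082 ± 0.12), a difference of -0.061 without control replicate 2. Rpl36a had 6.76 and 6.64 against 6.64 and 6.77 and Rpl39 had 7.09 and 7.03 against 6.98 and 7.12, so that both overlapped.

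**Figure D4:**
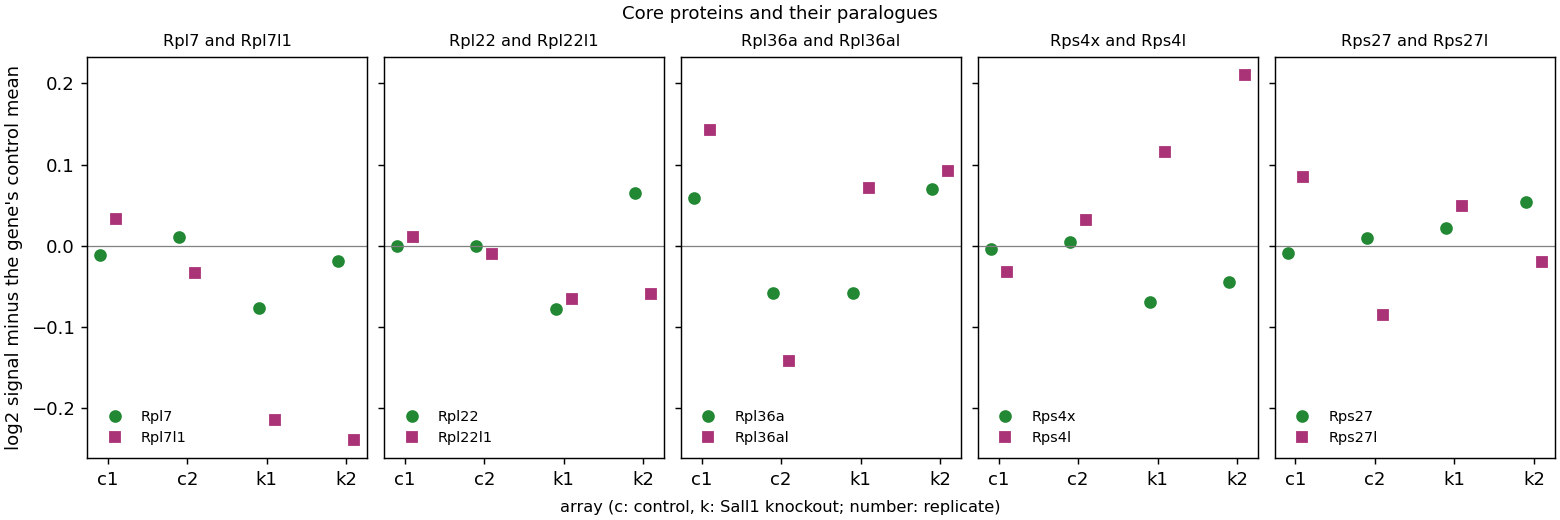
Log2 signal on each array minus the gene's mean in controls, for 5 core proteins (circles) and their paralogues (squares). Rpl7l1 lies below its control values on both knockout arrays and Rps4l above, while Rpl36al and Rps27l overlap between the groups.

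The remaining 3 members are paralogues known from other tissues and had no probe marked as well above background on any of the 4 arrays. These were Rpl3l, a form of skeletal muscle and heart, and Rpl10l and Rpl39l, forms of the male germ line. Rpl3l had log2 signals of -6.76 and -5.54 in controls and -7.06 and -6.71 in knockouts. Rpl39l had -6.90 and -7.05 against -5.03 and -4.74, and Rpl10l lay between -7.30 and -5.37 over both probes. Rpl10, the broadly expressed relative of Rpl10l, had 8.40 and 8.44 in controls and 8.36 and 8.39 in knockouts (-0.038 ± 0.057, SE). Both knockout values of Rpl39l were above its control values. They lay near the lowest levels marked as well above background on those arrays, -5.15 and -4.80. No fold is given for the 3 paralogues, as none was marked as well above background, and their differences were not tested.

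Genes that make or regulate ribosomes were set beside the members. Among ribosomal proteins outside the naming rule, Fau had a log2 difference of -0.0083 ± 0.065 (SE) and Rack1 of -0.0047 ± 0.058, and both overlapped between groups. Other TOP messengers had a median of -0.034 over 20 genes, turning to 0.0053 with quantile normalization and 0.0023 with cyclic loess. Without overlap 7 were lower (35.0%, against 27.7% of all features) and 1 higher (5.0%, against 21.5%). The translation elongation factor Eef1a1 differed by 0.023 ± 0.057 and Eef2 by -0.026 ± 0.055, and Ipo5, an importin, had the smallest unadjusted p of the list with -0.20 ± 0.057.

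Ribosome biogenesis factors, the nucleolar proteins that process ribosomal RNA and assemble the subunits, were lower by a small and even amount. Their median log2 difference was -0.15 over 71 genes, of which 69 lay below 0. Both knockout arrays were lower for 63 genes and higher for 0, without overlap, against 27.7% and 21.5% of all features tested. An unadjusted p under 0.05 was reached by 24 genes, all lower, where 5.94% of all features were lower at that level. Limma called 0 of the 71 (smallest adjusted p = 0.260). Urb2 had 0.35 and 0.39 in controls and -0.0040 and 0.068 in knockouts, a difference of -0.34 ± 0.061 (SE). Gnl3, which encodes nucleostemin, had 2.14 and 2.13 against 1.87 and 1.87 (-0.27 ± 0.054). Nucleolin (Ncl) differed by -0.16 ± 0.062 and nucleophosmin (Npm1) by -0.13 ± 0.066. The median stayed between -0.18 and -0.12 under every alternative run. Liver, macrophage and most muscle markers were higher and most kidney markers lower on the same arrays, and their part in this lean was not tested.

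**Figure D5:**
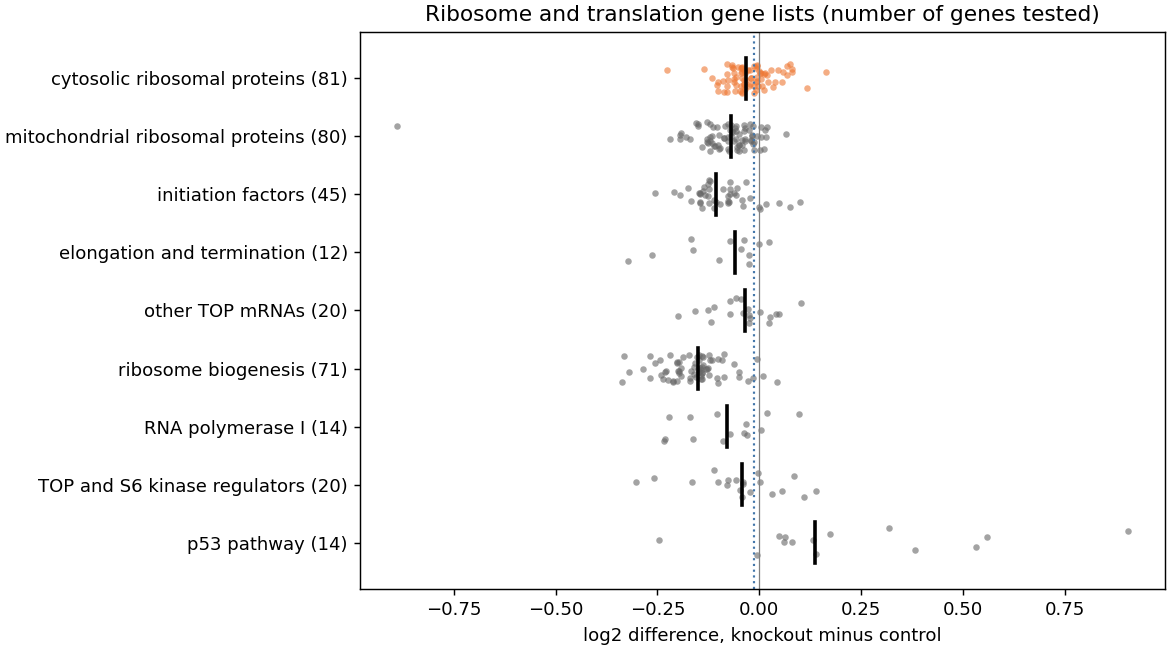
Log2 difference, knockout minus control, of each gene tested in 9 lists, with black bars at the medians and a dotted line at the median of all features tested, -0.013. The cytosolic ribosomal proteins centre on -0.031 and the ribosome biogenesis factors on -0.15.

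The apparatus around the ribosome leaned the same way. RNA polymerase I and its factors, which transcribe ribosomal DNA, had a median of -0.080 over 14 genes, 9 lower and 0 higher without overlap. Cd3eap differed by -0.22 ± 0.057 (SE) and Polr1e by -0.23 ± 0.071. Translation initiation factors had a median of -0.11 over 45 genes, 30 lower and 2 higher without overlap, with Eif3j1 at -0.26 ± 0.055 and Eif3a at -0.20 ± 0.057. Elongation and termination factors had a median of -0.059 over 12 genes, with the release factor Etf1 at -0.32 ± 0.055 and Eef1e1 at -0.26 ± 0.061. Limma called 0 genes in these lists at an adjusted p under 0.05, against 0.0% of all features, and the unadjusted p was under 0.05 for 3, 4 and 2 genes, all lower, against 5.94% of all features. Of all features 27.7% were lower and 21.5% higher without overlap.

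Mitochondrial ribosomal proteins, which serve a separate ribosome, had a median of -0.068 over 80 genes, 44 lower and 0 higher without overlap, against 27.7% and 21.5% of all features, and 4 genes, all lower, with an unadjusted p under 0.05, against 5.94%. With cyclic loess the median was -0.029, with 26 lower and 5 higher, and with quantile normalization -0.033, with 32 lower and 3 higher. Gadd45gip1 stood apart from the rest of the list, with 2.61 and 2.65 in controls and 1.72 and 1.76 in knockouts. It was lower by 0.89 on the log2 scale (SE 0.057), 1.85-fold, at an adjusted p of 0.114 in limma, and 0.000619 in limma with the prior fitted along the signal. Mrps5 differed by -0.22 ± 0.064.

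Regulators of TOP translation and of ribosomal protein genes had a median of -0.042 over 20 genes, 9 lower and 4 higher without overlap, against 27.7% and 21.5% of all features. Mycn, a Myc family transcription factor, had 2.72 and 2.82 in controls and 2.45 and 2.48 in knockouts (-0.30 ± 0.066, SE; limma, adjusted p = 0.298). Mtor differed by -0.17 ± 0.064. Larp1, which binds the TOP tract, differed by 0.056 ± 0.062 and the S6 kinase gene Rps6kb1 by -0.043 ± 0.066.

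The p53 pathway, with which Rpl5, Rpl11 and Rpl23 connect, leaned the other way. Its 14 genes tested had a median of 0.14, with 8 higher and 1 lower without overlap, against 21.5% and 27.7% of all features. An unadjusted p under 0.05 was reached by 4 of them, all higher, against 6.77% of all features. Ccng1 had 0.18 and 0.18 in controls and 0.53 and 0.59 in knockouts (0.38 ± 0.058, SE), and Cdkn1a, which encodes the cell cycle inhibitor p21, had -0.80 and -0.81 against -0.15 and -0.34 (0.56 ± 0.088). Limma called 0 of the 14, with a smallest adjusted p of 0.223, and a prior that follows the signal called Ccng1 and Cdkn1a. Mdm2 itself differed by 0.049 ± 0.065 and Trp53 by -0.25 ± 0.13.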

How the data were processed

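The deposited scanner files hold a background-corrected intensity on a linear scale (Agilent Feature Extraction 10.7.3.1, array design 028005, build mm9), per the file headers. The authors' value table repeats it: 100% of 55249 single-spot probes agreed within 1%. Labels give 0.25 µg of RNA and Cy3. No spot was saturated, 60.6% to 64.2% of spots per array were well above background, and all 4 arrays shared 1 slide and 1 scan day.

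Each array was divided by its 75th percentile (521 to 597) and set to log2, leaving out control and outlier spots. The brightest probe stood for a gene. Accessions were named through RefSeq (GRCm38.p6), with 26413 probes matched and 29268 not, giving 15090 named genes and 9993 unnamed sequences. The test was limma 3.58.1 (R 4.3.3; two-sided, Benjamini-Hochberg over all features), tested on simulated data. An exact test of 2 arrays against 2 cannot go below 0.333 and was not run. Alternatives changed background correction, normalization, filters, probe choice, prior, weights, source of values and the arrays used.

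Members and lists were chosen with earlier results of these data known. Members are named by role, as paralogue pairs, by the 5 largest and 5 smallest differences, the 4 smallest unadjusted p and the 3 widest ranges between probes, and from each list up to 2 genes by unadjusted p. Rps10, Rps13, Rpl4, Eef1a1, Eef2, Rack1, Ncl, Npm1, Larp1, Rps6kb1, Mdm2, Trp53 and Des were chosen after their values were seen. A few genes that the naming rule would give are not reported here. Groups follow the genotype label, with replicates numbered in sample order.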

Additional observations from a re-analysis of the deposited data

How the results depend on the processing

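With 2 arrays per group the fit has little power for single genes, and 971 alternative values were computed, of which 913 moved by less than the replicate spread or, for counts, by less than 1.5 times. Small differences of single genes could turn sign within that spread. No paired analysis was possible because the sample titles of the groups share no replicate number. The number of ribosomal protein genes called stayed at 0 in every alternative with an adjusted p. At an unadjusted p under 0.05 it was 1, with 4 under the trended prior and 3 with normexp. Quantile normalization, cyclic loess and the run without a background filter each gave 1 lower and 1 higher at that level. Their median log2 difference was 0.0037 with cyclic loess, -0.065 with median centring and -0.050 to -0.010 with 1 array left out. Over all features the median was 0.0062, -0.046 and -0.024 to -0.0032 under the same settings. Genes lower without overlap numbered 17 with cyclic loess (22.9% of all features) and 36 to 55 with 1 array left out (38.6% to 42.3% of all features). Genes higher without overlap numbered 19 with cyclic loess (25.3% of all features) and 2 with median centring (16.2%). With 1 array left out they numbered 9 to 20 (32.6% to 35.5% of all features). For the other lists, medians with quantile normalization, cyclic loess and median centring were -0.12, -0.12 and -0.18 for ribosome biogenesis, -0.033, -0.029 and -0.10 for mitochondrial ribosomal proteins, -0.046, -0.041 and -0.11 for RNA polymerase I, -0.073, -0.067 and -0.14 for initiation factors, 0.0053, 0.0023 and -0.068 for TOP messengers and -0.013, -0.0051 and -0.076 for TOP regulators. Elongation factors had -0.014 with quantile normalization, and the p53 pathway had 0.16 with cyclic loess and 0.10 with median centring. With normexp background correction the medians were -0.099 for RNA polymerase I, -0.084 for initiation factors and -0.052 for TOP messengers. With 1 array left out they ran from -0.18 to -0.14 for ribosome biogenesis, -0.10 to -0.066 for RNA polymerase I, -0.061 to -0.028 for TOP regulators, 0.10 to 0.18 for the p53 pathway, -0.033 to 0.036 for the ribosomal proteins outside the naming rule, -0.10 to -0.040 for mitochondrial ribosomal proteins, -0.094 to -0.030 for elongation factors, -0.12 to -0.092 for initiation factors and -0.042 to -0.029 for TOP messengers. The trended prior called 1 mitochondrial ribosomal protein gene, 1 elongation and termination gene and 2 p53 pathway genes, and normexp 1 mitochondrial ribosomal protein gene. The cause of these shifts was not tested.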
